A study of Mus musculus with 12 samples.

Results

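The 10 genes described here encode cytokines of T helper cells: Il2, Il3, Il4, Il10, Il21, Ifng, Tnf, Csf2, Lif and Osm. They were taken by gene symbol from the deposited count tables, and all 10 were found among the 55450 genes listed. Their messenger RNA was measured in cultured mouse CD4 T cells of 4 groups, each with 3 sequencing libraries. WT cells came from wild type mice and KO cells from Pkm2 knockout mice; Pkm2 is the M2 form of the glycolytic enzyme pyruvate kinase. Naive T cells of spleen and lymph nodes were grown in medium with 25 ng/mL human IL7, a survival cytokine, in all 4 groups, for 24 h by the design text and overnight by the sample labels. WT resting and KO resting cells received IL7 alone. WT stimulated and KO stimulated cells were also plated on wells coated with antibodies to CD3 (1 ug/mL) and to CD28 (2 ug/mL). These engage the T cell receptor complex and its costimulatory partner. RNA came from positively selected CD4 T cells. The labels name neither the knockout allele nor the cells in which it acts, and they do not state whether the libraries of a group came from different animals. The p-values below therefore describe the spread among libraries, which may be technical.

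Helper T cells direct other immune cells by secreting cytokines, and naive cells make few of them until the antigen receptor and CD28 signal together. Calcium entry then brings the transcription factor NFAT into the nucleus, where it acts with AP-1 and NF-kB at cytokine genes, while RNA-binding proteins limit how long the messages last. Commitment to a helper subset narrows the output: interferon gamma (Ifng) marks type 1 cells, interleukin 4 (Il4) type 2 cells and interleukin 21 (Il21) follicular helper cells, whereas interleukin 2 (Il2) is made early by activated cells of many kinds.

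Several of the genes are neighbours in the genome (positions in GRCm38, the assembly also called mm10, counted from 1). Il2 (chr3:37120523-37125959, minus strand) and Il21 (chr3:37222759-37232636, minus strand) lie 96799 bases apart. On chromosome 11, Il3 (chr11:54265303-54267277, minus strand) and Csf2 (chr11:54247271-54249667, minus strand) are separated by 15635 bases, and Il4 (chr11:53602982-53618669, minus strand) lies 628601 bases from Csf2. Lif (chr11:4257557-4272514, plus strand) and Osm (chr11:4236420-4241026, plus strand) are a second pair of that chromosome, 16530 bases apart. Il10 (chr1:131019845-131024974, plus strand), Ifng (chr10:118441046-118445892, plus strand) and Tnf (chr17:35199381-35202007, minus strand) lie alone on their chromosomes within the group.

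Promoter sequences are shown because 9 of the 10 genes rose together on stimulation. RefSeq start sites (GRCm38.p6) were matched for 8 of the 10 genes, 9 start sites in all with 2 for Il4; Il10 and Osm were not matched. The sequences below are the 250 bases before the start of Il2 and Lif, which rose most among genes with counts at rest, of Il4, which held the most NFAT matches, and of Tnf and Ifng, which were already present at rest. Capitals mark the NFAT core (GGAAA, or TTTCC on the other strand) and the AP-1 motif TGANTCA. In order, the windows are chr3:37125955-37126204 (minus strand), chr11:4257318-4257567 (plus strand), chr11:53618666-53618915 (minus strand), chr17:35202008-35202257 (minus strand) and chr10:118440796-118441045 (plus strand).
Il2: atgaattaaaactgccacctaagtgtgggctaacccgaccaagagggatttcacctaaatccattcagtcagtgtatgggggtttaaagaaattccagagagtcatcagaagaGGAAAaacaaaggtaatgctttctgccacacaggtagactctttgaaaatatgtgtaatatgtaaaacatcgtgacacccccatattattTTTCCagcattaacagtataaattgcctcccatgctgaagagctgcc
Lif: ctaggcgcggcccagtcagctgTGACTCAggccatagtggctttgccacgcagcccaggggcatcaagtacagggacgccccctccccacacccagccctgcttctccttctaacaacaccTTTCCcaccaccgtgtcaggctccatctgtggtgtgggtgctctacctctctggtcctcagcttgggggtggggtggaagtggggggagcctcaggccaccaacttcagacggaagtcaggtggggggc
Il4: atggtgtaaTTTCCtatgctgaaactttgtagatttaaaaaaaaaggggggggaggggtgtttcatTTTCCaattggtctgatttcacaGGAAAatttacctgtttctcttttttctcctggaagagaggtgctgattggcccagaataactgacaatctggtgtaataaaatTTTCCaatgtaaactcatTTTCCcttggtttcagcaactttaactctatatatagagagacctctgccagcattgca
Tnf: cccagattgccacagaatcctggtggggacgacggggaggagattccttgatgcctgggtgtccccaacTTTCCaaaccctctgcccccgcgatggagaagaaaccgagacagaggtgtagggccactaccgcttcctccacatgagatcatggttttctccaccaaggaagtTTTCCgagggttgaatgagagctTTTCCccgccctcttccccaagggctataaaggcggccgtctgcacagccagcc
Ifng: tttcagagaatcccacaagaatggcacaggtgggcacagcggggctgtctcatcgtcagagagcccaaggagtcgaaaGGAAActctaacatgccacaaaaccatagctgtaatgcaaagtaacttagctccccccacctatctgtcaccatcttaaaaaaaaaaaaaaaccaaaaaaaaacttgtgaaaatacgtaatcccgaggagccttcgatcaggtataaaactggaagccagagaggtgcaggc
An NFAT core stood in 8 of the 9 member windows, against 55.6% of 32851 start sites of all genes searched in the same way on both strands. The Il4 window of the longer transcript held 5 cores, a number reached or passed in 0.390% of all windows, while the window of the other Il4 start held 0. Tnf and Il21 held 3 cores each (3 or more in 6.39% of all windows), Il2 and Csf2 held 2, and Il3, Ifng and Lif held 1. The AP-1 motif was found in 1 window, that of Lif (6.75% of all). An NF-kB motif of 3 G and 2 C with any 5 bases between them (on either strand, matches allowed to overlap) was present in 5 windows (45.8% of all) and the TATA box TATAAA in 3, those of Il2, Tnf and Ifng (12.4% of all). These matches describe letters in the windows and show no binding.

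Levels are given in CPM, counts scaled to the same library total after adjustment for composition (TMM). Library totals ran from 63266498 to 72128464 counts in resting and from 67333519 to 76891812 in stimulated cells, so that 3 counts, used here as the floor for a gene at 0, correspond to 0.0390 to 0.0474 CPM before TMM scaling. Pkm, the targeted gene, was lower in KO, with a log2 fold change of -1.3 ± 0.08 (SE, edgeR adjusted p = 0.00412) in resting and -1.23 ± 0.03 (adjusted p = 1.4e-08) in stimulated cells. CD4 T cell markers (12 of 12 detected) summed to between 4177 and 5201 CPM in resting and between 3223 and 3335 CPM in stimulated libraries. The resting libraries held the Y-linked Ddx3y (143 to 167 CPM) and almost no Xist (up to 0.0867 CPM), whereas after stimulation Ddx3y had 0 counts and Xist 941 to 1126 CPM. Condition, sex-linked transcripts and deposited table changed together, so none of these can be told apart in the comparisons of stimulated with resting cells. Genotype comparisons within a condition do not cross this division.

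None of the 10 cytokine genes stayed near zero, taken as under 1 CPM in every library, in all 4 groups. At rest this held for 4 genes in WT (Il2, Il3, Il10 and Csf2) and for 6 in KO (the same 4, Il4 and Il21), and after stimulation it held for 0 genes in either genotype. With a limit of 2 CPM, Il10 also remained under it in every WT stimulated library. The 10 genes together made up 44.1 ± 0.927 CPM in WT resting and 42.8 ± 1.95 in KO resting cells (SD, n = 3), most of it Tnf and Osm. After stimulation their sum was 545 ± 52.6 CPM for WT and 477 ± 46.3 for KO. The plot of levels by library shows these values for each gene.

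**Figure D1:**
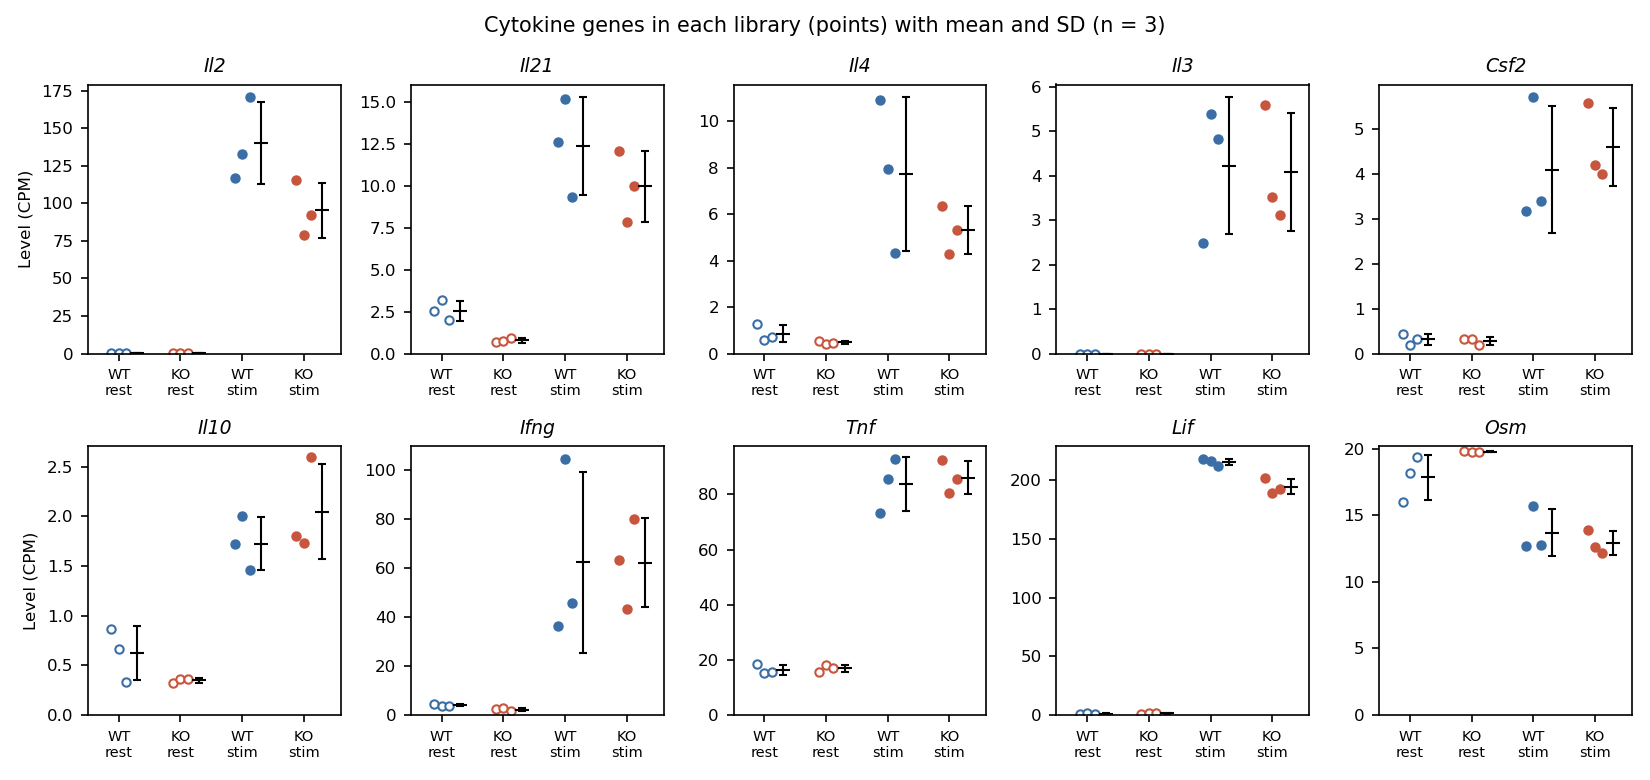
CPM of each cytokine gene (vertical axes, linear, starting at 0, scaled per gene) in the WT and KO resting and stimulated groups, with points for the 3 libraries of a group and mean and SD beside them. Il3 sits at 0 in all 6 resting libraries, 9 genes are higher in every stimulated library than in any resting library of the same genotype, and Osm is lower.

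Stimulation raised 9 of the 10 cytokine genes and lowered 1, Osm, in WT and equally in KO cells. All 10 passed in both genotypes (edgeR quasi-likelihood F-test, Benjamini-Hochberg adjusted over 17460 genes, threshold 0.05), where 84.1% of all genes tested passed in WT and 82.9% in KO. Of all genes, 39.3% were called higher and 44.8% lower in WT, and 39.6% and 43.3% in KO. The 9 rising genes and Osm also had no overlap between conditions, a pattern that 39.7% of all genes showed upward and 45.0% downward in WT, and 41.3% and 45.4% in KO. The median log2 change of the 10 genes was 3.43 in WT and 3.85 in KO, against -0.14 and -0.11 over all genes tested, and it is the same with Il3 taken at its lower bound. In bulk RNA a higher level can mean more cells making a message or more message per cell, and these cannot be told apart here. Marker sums of other cells changed too. Monocyte and macrophage markers had mean sums of 1793 CPM in WT resting and 862 in KO resting, against 15.9 and 28.2 after stimulation. B cell markers went from 1714 and 1708 CPM to 590 and 893. Sums of regulatory T cell and type 2 innate lymphoid cell markers were higher after stimulation, but their median markers were lower. The regulatory T cell list includes Il2ra, with means of 78.5 CPM in WT resting and 1026 in WT stimulated cells. Its median marker went from 62.0 to 45.6 CPM in WT and from 58.7 to 51.4 in KO. For type 2 innate lymphoid cells the median marker went from 7.23 to 1.97 CPM in WT and from 6.69 to 3.64 in KO. The part of these cells in any change on stimulation was not tested.

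Among the growth and helper factors for lymphocytes, Il2, the T cell growth factor, measured 0.353, 0.443 and 0.649 CPM in the WT resting libraries and 0.211, 0.552 and 0.483 in KO resting. After stimulation it measured 117, 133 and 171 CPM in WT and 115, 79.2 and 92.0 in KO. Every stimulated library was far above every resting library. The rise was 291-fold in WT (log2 fold change 8.18 ± 0.31, SE, edgeR adjusted p = 2.1e-09) and 229-fold in KO (7.84 ± 0.31, adjusted p = 3.3e-09). Il21, which helps B cells in germinal centres, measured 2.51, 3.17 and 1.99 CPM in WT resting and 0.670, 0.753 and 0.941 in KO resting cells. It reached 12.6, 15.2 and 9.33 CPM in WT and 12.1, 7.87 and 10.0 in KO after stimulation. The genotypes were thus separate at rest and overlapped after stimulation. Il21 rose 4.85-fold in WT (log2 2.28 ± 0.23, edgeR adjusted p = 1.3e-06) and 12.6-fold in KO (3.66 ± 0.25, adjusted p = 3.1e-08). A predicted antisense gene, Gm12534, shares 469 exon bases with Il21; it had 0 to 5 counts at rest and 19 to 64 after stimulation, and with counting by strand not stated in the labels, their reads may be mixed.

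Of the cytokines that arm macrophages and inflame tissue, Ifng, which encodes interferon gamma, measured 4.35, 3.67 and 3.68 CPM in WT resting and 2.36, 2.67 and 1.51 in KO resting libraries. Stimulated WT libraries lay at 36.4, 104 and 45.6 CPM and KO libraries at 63.3, 43.3 and 79.7. WT stimulated replicate 2 stood apart from the other 2 libraries of its group, and the group's coefficient of variation was 59.4%. Ifng rose 15.9-fold in WT (log2 3.99 ± 0.46, edgeR adjusted p = 2.5e-05), and its log2 fold change was 3.40 without WT stimulated replicate 2. In KO it rose 28.5-fold (4.83 ± 0.48, adjusted p = 9.6e-06). A gene model of the same strand, Gm49751, shares 336 exon bases with Ifng, so its reads may be divided between both. Gm49751 had 37.3 to 91.5 counts at rest, where Ifng had 122 to 345. After stimulation Gm49751 had 53.5 to 142 counts, where Ifng had 2417 to 6582. The effect of this division on the fold changes of Ifng was not tested. Tnf, a broadly acting inflammatory cytokine, was present before stimulation at 18.4, 15.1 and 15.6 CPM in WT and 15.7, 18.2 and 17.2 in KO. It measured 73.3, 85.5 and 92.7 CPM in WT stimulated and 92.4, 80.6 and 85.4 in KO stimulated cells. Tnf separated the conditions with little spread inside each group, rising 5.12-fold in WT (log2 2.36 ± 0.10, edgeR adjusted p = 4.0e-10) and 5.06-fold in KO (2.34 ± 0.10, adjusted p = 4.5e-10).

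Il4, which drives type 2 responses and antibody class switching, measured 1.26, 0.567 and 0.729 CPM in WT resting and 0.558, 0.427 and 0.446 in KO resting cells. After stimulation it measured 10.9, 7.97 and 4.31 CPM in WT and 6.35, 4.28 and 5.32 in KO, and the genotypes overlapped. The rise was 9.04-fold in WT (log2 3.18 ± 0.37) and 11.1-fold in KO (3.47 ± 0.38; edgeR adjusted p = 6.2e-06 and 4.1e-06). Il10, which restrains inflammation, measured 0.870, 0.664 and 0.331 CPM in WT resting and 0.322, 0.364 and 0.359 in KO resting libraries. It was the lowest of the 10 genes after stimulation, at 1.72, 2.00 and 1.46 CPM in WT and 1.80, 1.74 and 2.59 in KO. Il10 rose 2.77-fold in WT (log2 1.47 ± 0.30) and 5.84-fold in KO (2.55 ± 0.32; edgeR adjusted p = 0.00060 and 7.6e-06).

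The haematopoietic growth factors Il3 and Csf2, neighbours on chromosome 11, remained under 6 CPM in every library. Il3, which acts on mast cells and basophils, had 0 counts in the 6 resting libraries, where 3 counts per library were the floor. It measured 2.49, 5.38 and 4.82 CPM in WT stimulated and 5.59, 3.51 and 3.12 in KO stimulated cells, which is at least 107-fold higher in WT and at least 109-fold higher in KO (edgeR adjusted p = 1.8e-06 and 1.9e-06). Csf2, which encodes the growth factor GM-CSF of granulocytes and macrophages, measured 0.429, 0.194 and 0.318 CPM in WT resting and 0.322, 0.326 and 0.186 in KO resting libraries. After stimulation it measured 3.17, 5.71 and 3.39 CPM in WT and 5.59, 4.21 and 4.0 in KO. For both genes the highest WT stimulated library was replicate 2 and the highest KO stimulated library was replicate 1, and the genotypes overlapped. Csf2 rose 12.9-fold in WT (log2 3.69 ± 0.34) and 16.4-fold in KO (4.04 ± 0.34; edgeR adjusted p = 3.1e-07 and 1.5e-07). The antisense gene Gm12223, which shares 96 exon bases with Csf2, had 0 counts in every library.

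Lif and Osm, members of the interleukin 6 family that lie side by side on chromosome 11, moved in opposite directions. Lif, leukemia inhibitory factor, measured 1.03, 1.47 and 1.03 CPM in WT resting and 1.02, 1.78 and 1.63 in KO resting cells. It measured 218, 216 and 212 CPM in WT stimulated and 201, 189 and 192 in KO stimulated cells, the tightest groups of any gene that rose. The rise was 183-fold in WT (log2 7.52 ± 0.17) and 131-fold in KO (7.04 ± 0.16; edgeR adjusted p = 3.5e-12 and 5.2e-12). Osm, which encodes oncostatin M, measured 16.0, 18.2 and 19.4 CPM in WT resting and 19.8, 19.7 and 19.8 in KO resting libraries. It measured 12.7, 15.7 and 12.7 CPM in WT stimulated and 13.9, 12.6 and 12.2 in KO stimulated libraries. No stimulated library reached a resting library of its genotype. On the log2 scale Osm fell by 0.38 ± 0.09 in WT (edgeR adjusted p = 0.0020) and by 0.62 ± 0.09 in KO (adjusted p = 4.4e-05). With library totals left unscaled, the median of all genes was -0.47 in WT and -0.44 in KO, and Osm measured -0.72 and -0.94; all 10 genes kept their direction. That scaling moved the share of called genes that were higher from 46.7% to 37.2% in WT and from 47.8% to 37.8% in KO.

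**Figure D2:**
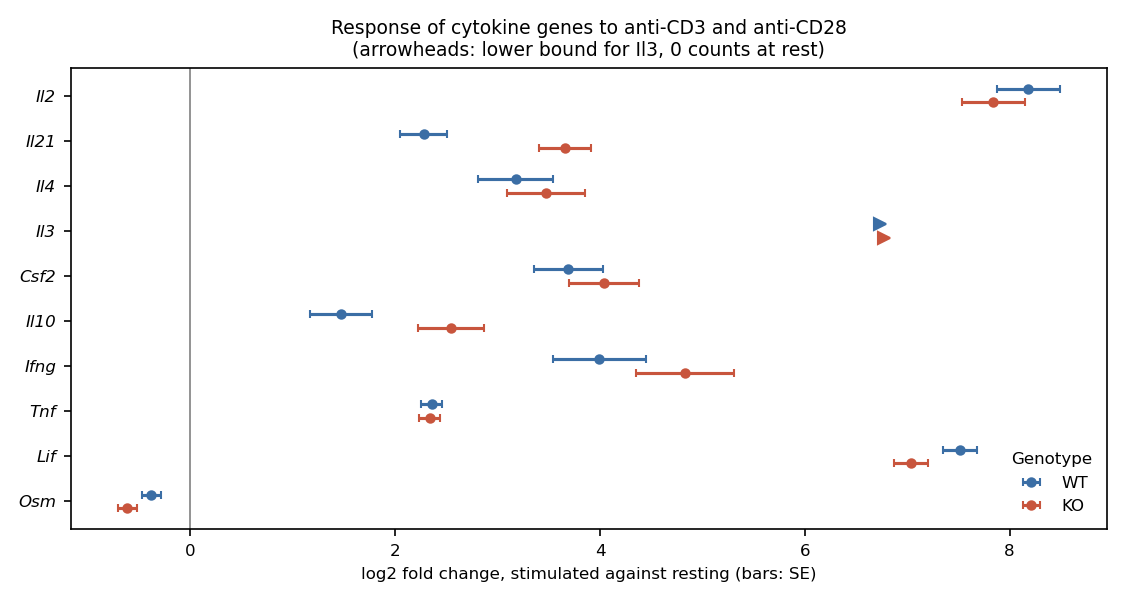
Log2 fold change of stimulated against resting cells (horizontal axis) for each cytokine gene in WT and KO, with bars for the SE and arrowheads for the lower bound of Il3, which had 0 counts at rest. Il2 and Lif lie farthest to the right among genes with counts at rest, and Osm alone lies left of 0, at -0.38 in WT and -0.62 in KO.

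In resting cells the KO libraries lay below all WT libraries for Il21, Ifng and Il4, and above all WT libraries for Osm. None of these passed the test over all genes. The mean of Il21 was 2.56 ± 0.593 CPM in WT and 0.788 ± 0.139 in KO (SD, n = 3), a log2 fold change of -1.71 ± 0.25 (SE, edgeR adjusted p = 0.135). Ifng had means of 3.90 ± 0.389 and 2.18 ± 0.602 CPM (log2 -0.85 ± 0.23, adjusted p = 0.278), and Il4 of 0.852 ± 0.363 and 0.477 ± 0.0710 CPM (-0.85 ± 0.34, adjusted p = 0.350). Osm differed by 0.14 ± 0.07 (adjusted p = 0.435), with means of 17.9 ± 1.70 and 19.8 ± 0.0397 CPM. The 3 genes that were lower without overlap stand against 9.97% of all genes with that pattern, and the 1 higher gene against 9.89%.

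EdgeR called 0 of the 9 cytokine genes tested in resting cells, where 0.0361% of all 16637 genes tested were called; Il3 had no counts and was not tested. At an unadjusted p under 0.05 there were 3, Il4, Il21 and Ifng, all lower in KO, where 8.11% of all genes were lower at that level. DESeq2, which gave an adjusted p for 7 of the genes, called 2, Il21 and Ifng (adjusted p = 4.8e-06 and 0.0324), where it called 3.69% of all genes. The edgeR call of Il21 was also reached without the low-count filter (adjusted p = 0.0385) and in a fit of all 12 libraries (adjusted p = 0.0141). With each resting library left out in turn the adjusted p of Il21 ran from 0.0593 to 0.571. The median log2 fold change of the 9 genes was -0.22, against 0.01 over all genes. Il10 measured -0.85 ± 0.38 (adjusted p = 0.385), Il2 -0.22 ± 0.41, Csf2 -0.18 ± 0.39, Tnf 0.05 ± 0.10 and Lif 0.32 ± 0.28, with adjusted p between 0.652 and 0.864 for the last 4. Il2 and Csf2, with the largest errors, lay under 1 CPM in all 6 libraries.

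Markers of other cells moved beside these genes at rest. The 12 monocyte and macrophage markers, none at 0, had log2 fold changes below 0 in 12 of 12 (edgeR called 0 and DESeq2 5), and summed to 2868, 1537 and 975 CPM in WT resting and to 837, 870 and 880 CPM in KO resting replicates 1, 2 and 3. Memory or effector CD4 T cell markers (10, none at 0) were below 0 in 7, with 0 called by either tool, and summed to between 689 and 851 CPM in WT and between 599 and 655 in KO. Naive CD4 T cell markers (6, none at 0) were below 0 in 1, with 0 called by edgeR and 2 by DESeq2. They summed to between 2865 and 3485 CPM in WT and between 3421 and 3663 in KO. Over all genes edgeR called 0.0361% and DESeq2 3.69%. The part of these cells in the resting levels of Il21, Ifng and Il4 was not tested. WT resting replicate 1, with the highest monocyte and macrophage sum, was highest in Ifng, Il4, Il10, Tnf and Csf2. It was not highest in Il2, Lif, Osm or Il21, the last of which was highest in replicate 2. The same library also had the highest B cell, neutrophil, dendritic cell, erythroid and memory marker sums of its group.

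**Figure D3:**
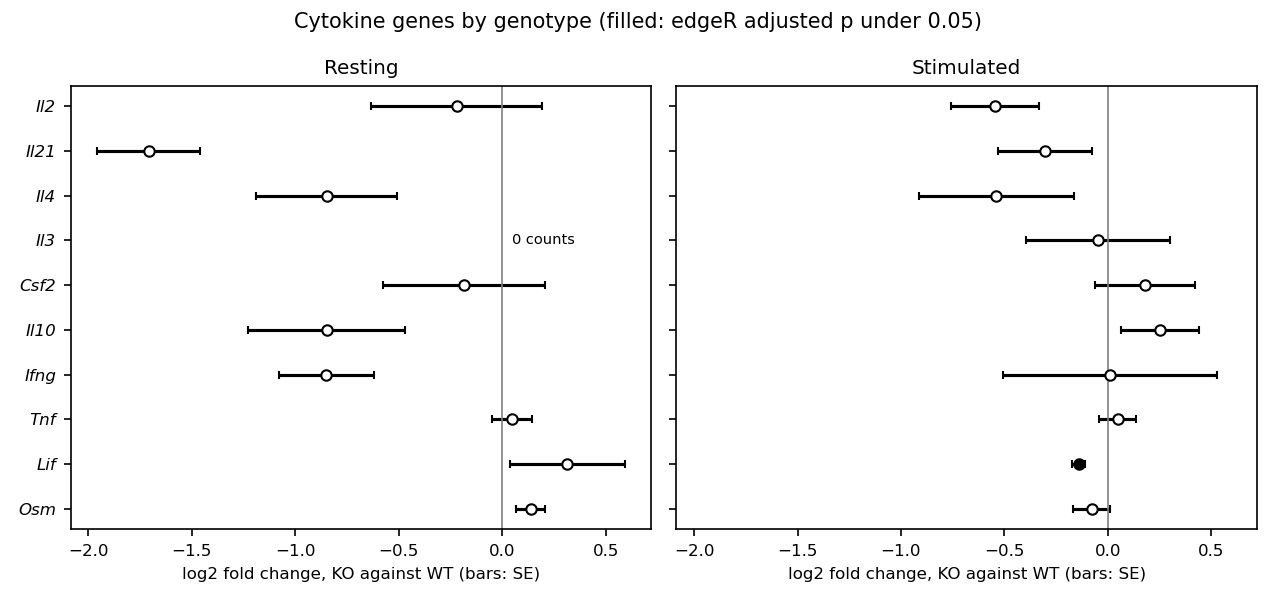
Log2 fold change of KO against WT (horizontal axes) for each cytokine gene in resting and in stimulated cells, with bars for the SE and filled points for edgeR adjusted p under 0.05. Il21 at rest lies farthest from 0, at -1.71, without passing, and Lif after stimulation, at -0.14, is the only filled point.

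In stimulated cells Lif was lower in KO, and it was the only cytokine gene of the 10 that passed. Its mean was 215 ± 2.79 CPM in WT against 194 ± 6.30 for KO (SD, n = 3), and every KO library lay under every WT library. Lif fell by 0.14 ± 0.03 (SE) on the log2 scale, a change of -9.30% (edgeR adjusted p = 0.0371). The call was lost when WT stimulated replicate 1 or 3 or any of the KO stimulated replicates 1, 2 and 3 was left out (adjusted p from 0.0638 to 0.173), and it was kept without WT stimulated replicate 2. It was also lost in the fit of all 12 libraries (adjusted p = 0.707), where the log2 value was -0.15 ± 0.12. Of the 7 alternatives other than leaving 1 library out, 6 kept the call. DESeq2 was among them, and it called 7.97% of all genes. The 1 gene called of 10 stands against 4.76% of 15090 genes called in either direction and 1.40% called lower.

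Il2 was the other gene without overlap between genotypes after stimulation. Its mean was 140 ± 27.5 CPM in WT and 95.5 ± 18.3 in KO, a log2 fold change of -0.55 ± 0.21 that did not pass (edgeR adjusted p = 0.255). The lowest WT library, at 117 CPM, lay just above the highest KO library, at 115 CPM. Lower values without overlap, as in these 2 genes, were seen in 14.6% of all genes. The other 8 overlapped between genotypes, with log2 fold changes of -0.54 ± 0.38 for Il4, -0.30 ± 0.23 for Il21, -0.08 ± 0.09 for Osm, -0.05 ± 0.35 for Il3, 0.01 ± 0.52 for Ifng, 0.05 ± 0.09 for Tnf, 0.18 ± 0.24 for Csf2 and 0.25 ± 0.19 for Il10. Their edgeR adjusted p ran from 0.501 to 0.998. Tnf, with a small error, had means of 83.8 ± 9.82 CPM in WT and 86.1 ± 5.93 in KO. Ifng had means of 62.2 ± 36.9 CPM in WT and 62.1 ± 18.2 in KO, with the largest error of the 10 genes.

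Natural killer cells also transcribe Ifng, and their markers were summed in each library. The 8 markers, none at 0, summed to 23.9, 51.4 and 38.5 CPM in WT stimulated and to 49.7, 43.3 and 57.1 CPM in KO stimulated replicates 1, 2 and 3; 7 of 8 had log2 fold changes above 0 in KO, with 0 called. The order of the stimulated libraries within each genotype was the same for this sum and for Ifng. At rest it was not, with sums of 122, 124 and 157 CPM in WT and 106, 139 and 119 in KO replicates 1, 2 and 3. In WT stimulated cells the sums of B cell, CD8 T cell, monocyte and macrophage, neutrophil, dendritic cell and erythroid markers also stood in that order, highest in replicate 2 and lowest in replicate 1. B cell markers (12, none at 0) summed to between 458 and 703 CPM in WT and between 877 and 912 in KO stimulated libraries. Of these 12 markers 12 were above 0, and edgeR called 1 and DESeq2 9. Monocyte and macrophage markers summed to between 12.1 and 21.5 CPM in WT and between 25.5 and 31.2 in KO. Of 11 tested, edgeR called 5 higher and DESeq2 called 5. Over all genes edgeR called 3.37% higher and 1.40% lower, and DESeq2 called 7.97%. CD8 T cell markers (2, none at 0) summed to 17.3, 24.0 and 21.6 CPM in WT stimulated and 31.7, 36.4 and 35.4 in KO stimulated replicates 1, 2 and 3. EdgeR called 1 of them higher and DESeq2 called 2. Memory or effector CD4 T cell markers summed to between 575 and 618 CPM in WT and between 578 and 620 in KO. Of these 10, edgeR called 3 higher and DESeq2 called 7. Naive CD4 T cell markers summed to between 920 and 952 CPM in WT and between 1015 and 1051 in KO. Of these 6, edgeR called 3 higher and 1 lower, and DESeq2 called 5. The part of all these cells in the cytokine levels was not tested.

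The genotypes' responses to stimulation were compared by the difference of the log2 changes, KO response minus WT response. None of the 10 genes passed, where 0.693% of all 17460 genes did. Il21 had the largest difference, 1.38 ± 0.32 (SE, edgeR adjusted p = 0.0773), with means of 12.4 ± 2.94 CPM in WT and 9.99 ± 2.12 in KO after stimulation beside the resting means given above. Il10 differed by 1.08 ± 0.43 (adjusted p = 0.245), from means of 0.622 ± 0.272 and 0.349 ± 0.0227 CPM at rest to 1.73 ± 0.271 and 2.04 ± 0.477 CPM after stimulation. These 2 had an unadjusted p under 0.05, where 15.9% of all genes did. DESeq2 called 1, Il21 (adjusted p = 0.0039), where it called 6.81% of all genes. Il21 also passed in edgeR without WT resting replicate 3 (adjusted p = 0.0194) and without WT stimulated replicate 2 (adjusted p = 0.0490), and Il10 passed without WT resting replicate 3 (adjusted p = 0.0274). The remaining values were 0.84 ± 0.62 for Ifng, -0.48 ± 0.22 for Lif, 0.35 ± 0.45 for Csf2, -0.34 ± 0.51 for Il2, 0.30 ± 0.50 for Il4, -0.23 ± 0.13 for Osm and -0.02 ± 0.14 for Tnf, and Il3 has no usable value because of its resting zeros. Their edgeR adjusted p ran from 0.328 to 0.970.

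Levels of different genes were compared per kilobase of merged exon length, in CPM per kilobase. At rest Tnf led in WT at 9.98 ± 1.08, followed by Osm at 7.86 ± 0.750 and Ifng at 3.01 ± 0.301, with no overlap between neighbours in this order. Il4, Il21, Il10, Il2, Csf2 and Lif followed between 0.695 and 0.271, each overlapping its neighbour, and Il3 was at 0. KO resting cells had the same leading order, with Tnf at 10.4 ± 0.777, Osm at 8.70 ± 0.0175 and Ifng at 1.68 ± 0.465, and Il21 at 0.150 ± 0.0264 was the lowest gene above Il3. Stimulated WT cells had Il2 first at 123 ± 24.1, clear of Tnf at 51.1 ± 5.99. Tnf, Lif (49.5 ± 0.640) and Ifng (48.0 ± 28.5) did not differ beyond their spread. A gap followed, and Il3 (6.72 ± 2.44), Il4 (6.31 ± 2.71), Osm (6.03 ± 0.762) and Csf2 (5.11 ± 1.76) overlapped their neighbours. Il21 at 2.36 ± 0.559 and Il10 at 1.32 ± 0.207 came last. In KO stimulated cells Il2 again led, at 83.5 ± 16.0, ahead of Tnf (52.6 ± 3.62), Ifng (48.0 ± 14.1) and Lif (44.7 ± 1.45). There Ifng overlapped both Tnf and Lif, which did not overlap each other, and the same 6 genes formed the lower tier. Lif therefore had the largest CPM of all after stimulation but not the largest level per length, its exons covering 4350 bases against 1144 for Il2.

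**Figure D4:**
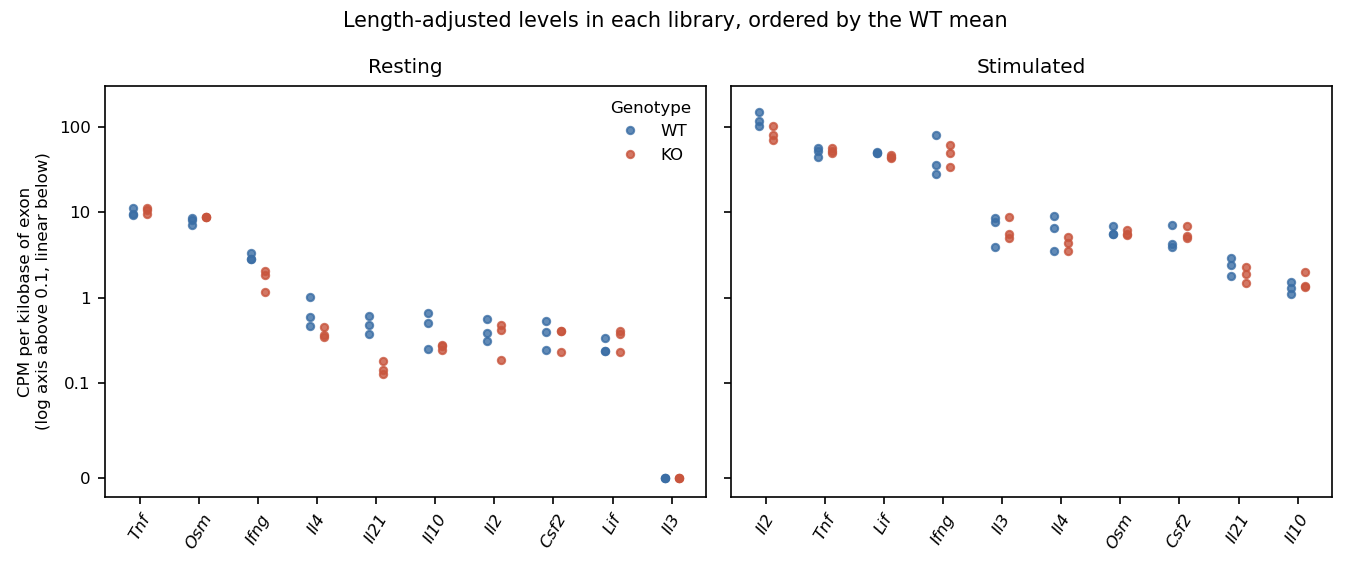
CPM per kilobase of exon (vertical axis, logarithmic above 0.1 and linear below) of the 10 cytokine genes in each WT and KO library, at rest and after stimulation, ordered by the WT mean. After stimulation Il2, Tnf, Lif and Ifng form an upper tier at 48.0 to 123 in WT, and the other 6 genes lie between 1.32 and 6.72.

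Receptor chains of these cytokines mostly fell on stimulation. Monocyte, macrophage and B cell marker sums fell as well, as given above, and their part in these falls was not tested. Of 19 tested, 4 rose and 15 fell in WT, and 2 rose and 15 fell in KO, with a median log2 change of -1.78 and -1.41. Over all genes 39.3% rose and 44.8% fell in WT, and 39.6% and 43.3% in KO. Il2ra, the high-affinity chain of the IL2 receptor, rose from 78.5 ± 20.5 to 1026 ± 62.1 CPM in WT (log2 3.71 ± 0.18) and from 72.4 ± 11.2 to 970 ± 40.2 CPM in KO (3.74 ± 0.18; edgeR adjusted p = 7.7e-09 and 7.6e-09). Lifr, the receptor for LIF, fell by 3.61 ± 0.48 in WT and by 2.37 ± 0.45 in KO (adjusted p = 4.1e-05 and 0.00061). In resting cells edgeR called 0 of the 19 chains between genotypes (0.0361% of all genes), with 3 at an unadjusted p under 0.05 (13.7% of all genes in either direction), and DESeq2 called 2 (3.69% of all genes). After stimulation 6 rose and 0 fell in KO, where 3.37% of all genes rose and 1.40% fell. DESeq2 called 7 of the 19, where it called 7.97% of all genes. Csf2rb, the beta chain shared by the receptors of IL3, IL5 and GM-CSF, measured 4.85, 7.49 and 5.33 CPM in WT and 11.9, 11.6 and 10.3 in KO (log2 0.94 ± 0.15, edgeR adjusted p = 0.016). Every KO library lay above every WT library. That call was lost without WT stimulated replicate 3 or KO stimulated replicate 1 or 2 (adjusted p up to 0.0749), without the low-count filter (0.0623) and in the fit of 12 libraries (0.129). Il10ra, the ligand-binding chain for IL10, rose from 25.4 ± 1.5 to 32.0 ± 1.04 CPM in KO (log2 0.34 ± 0.05, adjusted p = 0.0070); its call was kept with each library left out and lost in the fit of 12 libraries (adjusted p = 0.166). Beside these chains stand the B cell, monocyte and macrophage sums of stimulated cells given above, which were higher in KO, and their part was not tested. In the difference of responses edgeR called 1 of the 19 chains, where 0.693% of all genes were called. It was Tnfrsf1b, a TNF receptor, at 0.47 ± 0.09 (adjusted p = 0.0405). That call was kept only without WT resting replicate 1, WT resting replicate 3 or WT stimulated replicate 2. With any other library left out its adjusted p ran up to 0.108. DESeq2 called 6 of the 19, Tnfrsf1b among them, where it called 6.81% of all genes.

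Other cytokine genes of T cells mostly rose as well. Of 23 tested, 16 rose and 5 fell in WT, and 18 rose and 4 fell in KO, against 39.3% and 39.6% of all genes that rose. Il13, a type 2 cytokine beside Il4, rose from 0.133 ± 0.0289 to 14.7 ± 6.18 CPM in WT and from 0.153 ± 0.0391 to 14.9 ± 2.39 CPM in KO (log2 6.78 ± 0.39 and 6.58 ± 0.38, edgeR adjusted p = 1.5e-08 and 1.6e-08). Il9 had 0 counts in the 6 resting libraries and reached 1.66 ± 0.787 CPM in WT and 1.81 ± 0.334 in KO. Between genotypes edgeR called 0 of 16 at rest, with 4 at an unadjusted p under 0.05, and DESeq2 called 2, where the shares of all genes were 0.0361%, 13.7% and 3.69%. After stimulation 1 rose and 1 fell in KO, against 3.37% and 1.40% of all genes, and both flank Tnf on chromosome 17. Ltb, lymphotoxin beta, measured 50.9, 51.5 and 49.5 CPM in WT and 60.5, 62.9 and 61.7 in KO (log2 0.29 ± 0.03, adjusted p = 0.0029), a call kept with each library left out and lost in the fit of 12 libraries (adjusted p = 0.0867). Lta, lymphotoxin alpha, measured 105, 113 and 107 CPM in WT and 95.3, 86.0 and 93.8 in KO, and fell by 0.23 ± 0.04 (adjusted p = 0.0176), a call lost without WT stimulated replicate 3 or KO stimulated replicate 2 or 3 (adjusted p up to 0.0821) and in the fit of 12 libraries (0.233). Tnf between them differed by 0.05 ± 0.09. Genes beside the 10 cytokine genes on the chromosomes numbered 25 tested after stimulation. Ltb and Lta were the 2 that passed between genotypes in edgeR, against 4.76% of all genes. DESeq2 called 3 of these neighbours, Acsl6, Lta and Ltb. Of the 23 other cytokine genes it called 4, Ccl5, Il16, Lta and Ltb, where it called 7.97% of all genes. At rest edgeR called 0 of 22 such neighbours, with 3 at an unadjusted p under 0.05, and DESeq2 called 1, beside the same resting shares of all genes.

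Of 35 transcription factors that act on cytokine genes, 16 rose and 14 fell on stimulation in WT, and 18 rose and 11 fell in KO. The share called was near that of all genes, 84.1% in WT and 82.9% in KO. Irf4, which works with AP-1 partners in activated T cells, rose from 28.9 ± 1.17 to 1550 ± 69.5 CPM in WT and from 34.1 ± 4.43 to 1415 ± 42.8 CPM in KO (log2 5.75 ± 0.10 and 5.38 ± 0.09, edgeR adjusted p = 8.7e-14 and 1.5e-13). Tbx21, the type 1 factor T-bet that acts on Ifng, rose by 3.34 ± 0.15 and 3.54 ± 0.15 on the log2 scale. Maf, a factor known to act on Il4, Il10 and Il21, fell by 3.86 ± 0.19 in WT and by 2.48 ± 0.18 in KO. At rest Maf measured 159, 121 and 101 CPM in WT and 65.7, 70.1 and 71.5 in KO, without overlap (log2 -0.89 ± 0.17, edgeR adjusted p = 0.233). Within each genotype the resting libraries stood in the same order for Maf and for the monocyte and macrophage marker sum given above. The part of these cells in the levels of Maf and in its fall on stimulation was not tested. After stimulation it measured 9.36, 8.41 and 8.54 CPM in WT and 11.1, 10.7 and 15.4 in KO (log2 0.51 ± 0.14, adjusted p = 0.0806). The difference of its responses was 1.38 ± 0.25 (adjusted p = 0.0432), as large as that of Il21. That call was kept only without WT resting replicate 1 or WT resting replicate 3, with adjusted p up to 0.116 when any other library was left out, and it was lost without the low-count filter (0.165). In the difference of responses edgeR called 3 of the 35 factors, where 0.693% of all genes were called. The others were Fos, at 1.09 ± 0.22 (edgeR adjusted p = 0.0470), and Fosb, at 0.96 ± 0.19 (0.0479). With 1 library left out, Fos lost its call in 10 of 12 fits and Fosb in 11. DESeq2 called 6 of the 35, Maf among them, where it called 6.81% of all genes. Of the 35 factors edgeR called 0 between genotypes at rest, with 11 at an unadjusted p under 0.05, and DESeq2 called 3, Maf among them. The shares of all genes were 0.0361%, 13.7% and 3.69%. After stimulation edgeR called 5 higher and 0 lower in KO, against 3.37% and 1.40% of all genes. DESeq2 called 11 of the 35, where it called 7.97% of all genes. Maf and Irf4 were among these, Irf4 with means of 1550 CPM in WT and 1415 in KO. Rela, an NF-kB subunit, had a log2 fold change of 0.19 ± 0.03 (adjusted p = 0.012) and Runx3, a factor that acts with T-bet, of 0.24 ± 0.04 (adjusted p = 0.020). Both calls were lost without WT stimulated replicate 3 or KO stimulated replicate 1, 2 or 3, with adjusted p up to 0.0648 for Rela and 0.0995 for Runx3, and that of Runx3 also in the fit of 12 libraries (0.144).

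Of 12 RNA-binding proteins that shorten or lengthen the life of cytokine messages, 4 rose and 5 fell on stimulation in WT, and 5 rose and 5 fell in KO, where 84.1% and 82.9% of all genes were called. Zfp36, the decay factor tristetraprolin that acts on Tnf and Csf2 messages, fell by 1.53 ± 0.10 in WT, from 176 to 61.0 CPM (edgeR adjusted p = 3.7e-08). Between genotypes edgeR called 0 of the 12 at rest, with 2 at an unadjusted p under 0.05, and DESeq2 called 1, where the shares of all genes were 0.0361%, 13.7% and 3.69%. After stimulation 3 had a call as higher in KO, against 3.37% of all genes: Zc3h12c, Zfp36 and Zfp36l1, with log2 fold changes of 0.57 ± 0.11, 0.21 ± 0.05 and 0.15 ± 0.03 (edgeR adjusted p = 0.0198, 0.0474 and 0.0369). All 3 calls were lost without WT stimulated replicate 3 or any 1 KO stimulated library, and those of Zfp36 and Zfp36l1 also without WT stimulated replicate 1 (adjusted p up to 0.0926, 0.172 and 0.127). The fit of 12 libraries lost them as well (0.131, 0.468 and 0.242), and Zfp36 also lost its call with DESeq2 size factors (0.0555) and in the non-robust fit (0.0561). The DESeq2 Wald test called the same 3, where it called 7.97% of all genes. Of 7 feedback genes induced through STAT proteins, 5 rose and 1 fell in each genotype, beside the same shares of all genes on stimulation. Cish, an inhibitor of IL2 receptor signalling, rose by 3.17 ± 0.08 in WT and 3.25 ± 0.08 in KO on the log2 scale, and Socs3, an inhibitor of interleukin 6 family signalling, fell by 1.42 ± 0.12 and 1.53 ± 0.12. EdgeR called 0 of the 7 between genotypes in either condition, with 3 at an unadjusted p under 0.05 at rest and 0 after stimulation (13.7% and 20.6% of all genes), and DESeq2 called 1 at rest and 0 after stimulation (3.69% and 7.97% of all genes).

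The genes most like each cytokine gene were ranked by Pearson's r of log2(CPM + 0.5) over the 12 libraries, among 10802 genes, as a description with no test. The 6 resting and 6 stimulated libraries form separate clusters, so that r is set mostly by that division. Irf4 and Egr2 came first for Lif (r = 0.999 each), and Ppp5c, a protein phosphatase, first for Il2 (r = 0.999). Nfkb2, an NF-kB subunit, was the second nearest to Tnf (r = 0.998). Icos, the costimulatory receptor of follicular helper cells, was the nearest to Il21 (r = 0.983), with means of 83.9 CPM in WT resting, 60.7 in KO resting, 151 in WT stimulated and 142 in KO stimulated cells. Phactr2, Jun and Lag3 led for Il10 (r = 0.987, 0.982 and 0.981). Lag3, an inhibitory receptor, measured 22.9 CPM in WT resting, 9.22 in KO resting, 146 in WT stimulated and 155 in KO stimulated cells. Ric8a was the nearest to Osm (r = 0.978), at 88.9 and 97.3 CPM in WT and KO resting and 68.7 and 66.9 CPM in WT and KO stimulated cells.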

How the data were processed

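Per the labels' protocols, polyadenylated RNA was sequenced with a stranded mRNA ligation kit. Gene-level expected counts from RSEM 1.3.1, estimates of which 6.87% to 7.18% per library are not whole, were deposited by the authors in a resting and a stimulated table. Besides RSEM and mm10, STAR 2.7.0f, cutadapt 1.18 and bcl2fastq 2.20 are listed, per the submitters' processing notes, without their roles. Expected counts were rounded and analysed in R 4.3.3 with edgeR 4.0.16: filterByExpr (minimum count 10, minimum total 15), TMM scaling, robust quasi-likelihood F-test, Benjamini-Hochberg adjustment over all genes tested, threshold 0.05. KO was compared with WT in the 6 libraries of each condition. Responses to stimulation and their difference came from 1 fit of 4 group means over 12 libraries, whose scaling also sets all CPM. Exon lengths and positions are from GENCODE M21. Floors cover counting error only. Alternatives were DESeq2 1.42.0, its size factors, other filters, a non-robust fit, fits of more or fewer libraries, a replicate block and each library left out; unscaled totals were added after seeing the data. Scripts were tested on simulated data. No library pair was as close as sampling noise.

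The cytokine genes and gene lists were chosen with earlier results of these data known. From each list, genes named were up to 4 that passed with the largest change and at least 1 CPM in 1 group, or the 2 most abundant where none passed, and for likeness the 5 with the highest r; not all are named. Maf between genotypes within each condition was named after its values were seen.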

Additional observations from a re-analysis of the deposited data

How the results depend on the processing

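Across 46 results of single cytokine genes, 790 alternative values were computed; 22 had the other sign, of which 21 came from fits with 1 library left out, 6 lost a call and 8 gained one. Stimulation called all 10 genes in both genotypes under every alternative, and no gene stayed under the limit for near zero in all 4 groups under any. KO against WT at rest called 2 cytokine genes with the DESeq2 Wald test, 1 without the low-count filter and 1 in the fit of 12 libraries, in place of 0, and 0 in each fit with 1 library left out. KO against WT after stimulation called 0 in the fit of 12 libraries in place of 1, and from 0 to 1 with 1 library left out. The difference of responses called 1 with DESeq2 in place of 0, and from 0 to 2 with 1 library left out. Of 855 alternative values of the other named genes, 114 lost a call, 0 of them in the comparisons of stimulated with resting cells, and 0 changed sign. With the replicate block the difference of responses was not called for Maf (adjusted p = 0.0941) or Tnfrsf1b (0.0638). The cause of these changes was not tested. The log2 fold changes that changed sign ran, with 1 library left out, from -0.47 to 0.10 for Il2 and from -0.43 to 0.12 for Csf2 at rest; after stimulation from -0.34 to 0.16 for Il3, from -0.27 to 0.60 for Ifng, from -0.043 to 0.12 for Tnf and from -0.13 to 0.026 for Osm; and in the difference of responses from -0.10 to 0.63 for Il4 and from -0.11 to 0.062 for Tnf. Ifng after stimulation was also -0.0012 in the fit of 12 libraries.

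Over all genes, the 6 called at rest became 518 with DESeq2, 23 without the low-count filter, 161 in the fit of 12 libraries, 30 without replicate 1 of both groups and 2 to 18 with 1 library left out. The 719 called after stimulation became 1133 with DESeq2, 219 in the fit of 12 libraries and 128 to 1408 with 1 library left out. The 121 of the difference became 1003 with DESeq2, 204 with a filter of 1 CPM and 27 to 1657 with 1 library left out. Same-numbered WT and KO libraries had correlated deviations of 0.40, -0.17 and 0.38 at rest and -0.06, 0.04 and 0.09 after stimulation. Those with different numbers ran from -0.47 to 0.37 at rest and from -0.12 to 0.08 after stimulation. Replicate 1 had the highest erythroid marker sum in both resting groups, 1503 CPM in WT and 1456 in KO. Whether replicate numbers mark paired libraries cannot be told from these values. With the replicate number as a block, 0 cytokine genes were called at rest, 1 after stimulation, 10 and 10 by stimulation and 0 in the difference, while all genes called numbered 5, 1001, 14615, 14442 and 94. Genes under 1 CPM at rest rest on few counts, so that changes of Il2, Il10 and Csf2 there were detectable only if large.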
